A study of Drosophila melanogaster with 20 samples.

Results

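The gene armadillo (arm, FBgn0000117) encodes the Drosophila β-catenin, and its transcript was followed here in every library of a study of Wnt-4 and the Off-track co-receptors in whole Drosophila embryos. It is 1 gene of the 11154 tested and of the 17714 listed. It was chosen from measured values: its RNA is lower in the 3 groups that carry a hairpin against otk-2 than in the 7 groups that do not. That contrast is therefore given below as a description, with no test, and tests are kept for what the choice did not use.

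Armadillo has 2 roles in the same cells. In canonical Wnt signaling it is the transducer: without a Wnt ligand a complex of Axin, Apc and the kinase Shaggy marks the protein for degradation, and when Wingless binds Frizzled and Arrow the protein escapes this fate, enters the nucleus and acts with the DNA-binding protein Pangolin on Wingless target genes. At the adherens junction it links E-cadherin to α-Catenin. In the embryonic epidermis the Wingless signal keeps engrailed on and allows cells to make naked cuticle in place of denticles. Regulation of Armadillo by the destruction complex acts on the protein, whereas the values below measure its RNA.

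Embryos of mixed age were collected over 24 h of egg laying at 25 °C, and each of the 10 groups had 2 libraries. The methods of the study name a combined driver, maternal GAL4 with daughterless-GAL4, for the crosses with the UAS transgenes and hairpins, so that expression starts with maternally supplied GAL4 and goes on throughout the embryo. The 7 groups without the otk-2 hairpin were the control (WT), UAS-wnt-4, UAS-otk-1, UAS-otk-1 UAS-wnt-4, otk-1 RNAi, wnt-4 RNAi and wnt-4 RNAi otk-1 RNAi. The 3 groups with it were otk-2 RNAi, wnt-4 RNAi otk-2 RNAi and otk-1 RNAi otk-2 RNAi. The methods list more than one otk-2 hairpin stock without saying which was sequenced, give no hairpin sequence, and describe no separate cultures behind the replicate numbers, so that a p-value here covers only the spread among these libraries, which may be technical.

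Libraries held 33641557 to 41753919 counts, with a median of 35534098. The level of otk2 (otk-2), the target of the hairpin, was 18.8 to 28.4 CPM (counts relative to the TMM-scaled total of a library) in the 6 hairpin libraries and 37.4 to 81.6 CPM in the 14 others. The libraries labelled wnt-4 RNAi went against their label, with Wnt4 at 143 and 159 CPM beside 107 and 126 CPM in WT. In TPM (a share of transcripts that corrects for gene length) the excess was smaller, at 47.98 and 48.63 beside 38.75 and 44.95. Below WT were the groups labelled wnt-4 RNAi otk-1 RNAi (76.6 and 89.2 CPM) and wnt-4 RNAi otk-2 RNAi (74.9 and 82.9 CPM). Groups without the wnt-4 hairpin were below WT as well. Wnt4 was at 83.9 and 81.0 CPM in UAS-otk-1 and at 90.1 and 89.4 CPM in otk-1 RNAi. It was at 84.5 and 62.9 CPM in otk-2 RNAi and at 78.8 and 66.2 CPM in otk-1 RNAi otk-2 RNAi. A level below WT was thus not particular to the wnt-4 hairpin. Groups with the wnt-4 hairpin are called by their label only. Lists of maternal, blastoderm, cuticle, muscle and neuron genes were all detected, and of 11 eggshell genes of the ovary 1 passed the filter on low counts, with a summed level of 1.21 to 5.15 TPM. The embryos were not of one age. A stage score, the mean log2 CPM of the late lists minus that of the early lists, ran from −0.91 to 0.45 in the 6 hairpin libraries and from −0.62 to 2.49 in the 14 others, with the highest value in a WT library (WT had 1.03 and 2.49). In whole embryos fewer cells that express a gene and less RNA per cell cannot be told apart.

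On the dm6 assembly arm lies on the X chromosome at X:1891401-1900646, on the minus strand, and 6 transcripts are annotated. The transcripts arm-RA, arm-RB, arm-RD, arm-RE and arm-RF have 7 exons and an open reading frame of 843 codons. The transcript arm-RC has 6 exons and 721 codons, and its stop codon lies further upstream, which leaves a 3′ UTR of 698 bases in place of 429. The gene is abundant. Its mean TPM ranked 237 among the genes tested (percentile 97.9), and between 21522 and 51626 counts were assigned to it in a library, so that the spread between libraries and not counting noise limits these values.

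The arm transcript was lower in all 6 libraries with the otk-2 hairpin than in any of the 14 others. Its level was 637 and 665 CPM with otk-2 RNAi alone. The double knockdown, otk-1 RNAi otk-2 RNAi, had 690 and 671 CPM. These 4 libraries are the lowest of the series and lie close together. In the libraries labelled wnt-4 RNAi otk-2 RNAi arm was at 996 and 976 CPM, which is higher than in the other 4 hairpin libraries and lower than in all libraries without the hairpin.

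In WT arm was at 1219 and 1477 CPM. It was at 1276 and 1394 CPM in UAS-wnt-4, and at 1385 and 1390 CPM in UAS-otk-1. Overexpression of a ligand or co-receptor thus left arm within the span of the WT libraries. In UAS-otk-1 UAS-wnt-4 it was at 1361 and 1371 CPM. It was at 1496 and 1368 CPM in otk-1 RNAi, and at 1634 and 1663 CPM in the libraries labelled wnt-4 RNAi. The farthest apart, at 1426 and 1752 CPM, stood the pair labelled wnt-4 RNAi otk-1 RNAi. The lowest library without the hairpin (1219 CPM, WT) and the highest with it (996 CPM) were 0.29 apart on the log2 scale.

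**Figure D1:**
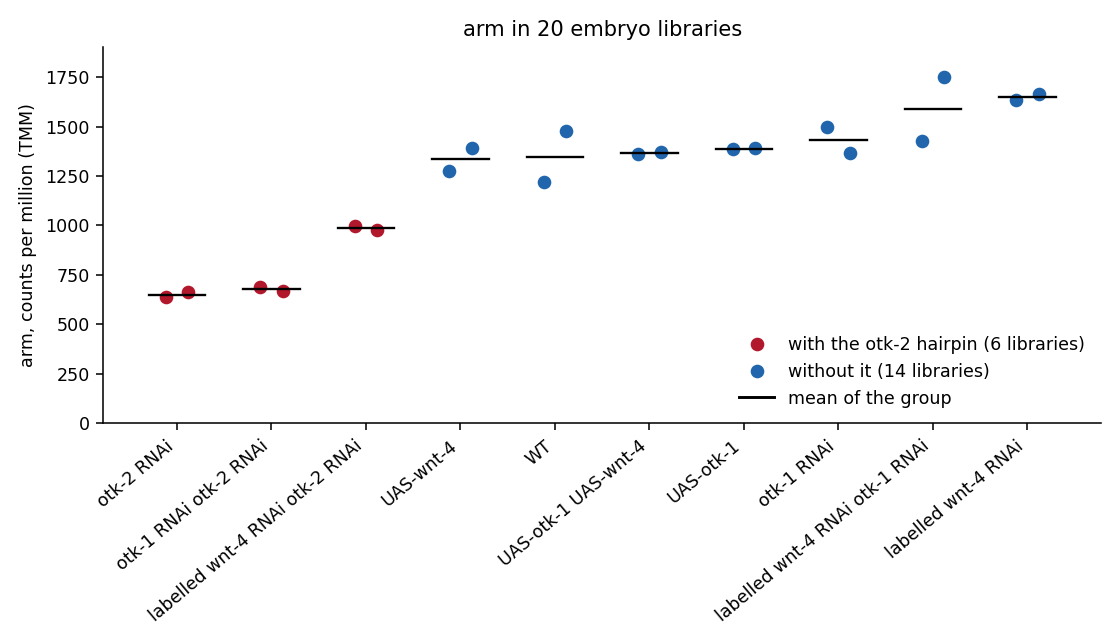
Level of arm in TMM-scaled CPM (vertical axis, from 0) in each of the 20 libraries, by group in the order of the group means. Points are libraries and bars are means of 2. The 6 libraries with the otk-2 hairpin sit between 637 and 996 CPM and the 14 others between 1219 and 1752 CPM.

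Ordered by the mean, arm was lowest in otk-2 RNAi (651 ± 19.7 CPM, SD, n = 2), at 45.1% of the mean of the 7 groups without the hairpin. The next was otk-1 RNAi otk-2 RNAi (680 ± 13.1 CPM), at 47.1%. The libraries labelled wnt-4 RNAi otk-2 RNAi followed (986 ± 14.3 CPM), at 68.3%. The level was thus below 50% of the other groups with 2 of the 3 hairpin combinations and not with the third. From UAS-wnt-4 (1335 ± 83.3 CPM) through WT (1348 ± 182 CPM), UAS-otk-1 UAS-wnt-4 (1366 ± 6.97 CPM), UAS-otk-1 (1387 ± 3.49 CPM) and otk-1 RNAi (1432 ± 90.4 CPM) the means differed by less than the spread of the WT libraries. The upper end held the groups labelled wnt-4 RNAi otk-1 RNAi (1589 ± 231 CPM) and wnt-4 RNAi (1648 ± 20.4 CPM). The mean log2 CPM of the 3 groups lay 0.92 below that of the 7, a ratio of 0.528.

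The separation did not depend on the scale. Per length, arm was at 206 to 334 TPM in the 6 hairpin libraries and at 413 to 553 TPM in the 14 others. Of all counts it took 0.0616 to 0.0866% in the 6 and 0.121 to 0.143% in the 14. The upper end of the order did depend on it: in TPM the libraries labelled wnt-4 RNAi otk-1 RNAi (425 and 429 TPM) were below both WT libraries (447 and 553 TPM), although their mean CPM was above that of WT.

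Each hairpin group has a partner whose label differs from its own only in the otk-2 hairpin, and the 3 pairs share no library. The labels do not say whether WT carried the driver, and the methods list no cross for it, so that the WT pair may differ in more. Against WT, arm in otk-2 RNAi was lower by 1.04 on the log2 scale, at 48.5% of the WT level. Against otk-1 RNAi, the otk-1 RNAi otk-2 RNAi libraries were at 47.5%. Against the libraries labelled wnt-4 RNAi, those labelled wnt-4 RNAi otk-2 RNAi were at 59.8%. These pairs are part of the contrast that chose the gene. Over all genes tested, 1.78%, 0.233% and 0.179% passed an adjusted p of 0.1 in these pairs in that order (edgeR quasi-likelihood test), of which 1.31%, 0.0717% and 0.0628% as lower and 0.475%, 0.161% and 0.117% as higher.

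In each pair otk2, a co-receptor of the PTK7 family and the target of the hairpin, was lower as well. In otk-2 RNAi it stood at 28.4 and 23.6 CPM beside 67.5 and 61.6 CPM in WT, a log2 fold change of −1.31 ± 0.14 (SE; adjusted p = 0.000389, edgeR). In otk-1 RNAi otk-2 RNAi it stood at 21.7 and 18.8 CPM beside 50.5 and 47.2 CPM in otk-1 RNAi, a change of −1.27 ± 0.14 (adjusted p = 0.00102, edgeR). In the libraries labelled wnt-4 RNAi otk-2 RNAi it stood at 26.0 and 25.4 CPM beside 49.9 and 44.4 CPM in those labelled wnt-4 RNAi, a change of −0.87 ± 0.14 (adjusted p = 0.0269, edgeR). The pair labelled wnt-4 RNAi had the smallest difference in arm and the smallest change of otk2, but a link between the 2 was not tested. Its reference libraries had less otk2 (49.9 and 44.4 CPM) than WT (67.5 and 61.6 CPM). With the hairpin, its otk2 level (26.0 and 25.4 CPM) lay within the span of otk-2 RNAi (28.4 and 23.6 CPM). The arm level was 996 and 976 CPM in the former and 637 and 665 CPM in the latter. Outside the pairs the levels of the 2 genes did not keep one order. In the libraries labelled wnt-4 RNAi otk-1 RNAi otk2 was at 37.4 CPM, its lowest level without the hairpin, and at 49.1 CPM, while arm was at 1426 and 1752 CPM.

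Whether the size of the arm difference varied between the 3 pairs was tested by interaction terms, added after these values were seen. The difference was smaller by 0.31 ± 0.16 on the log2 scale in the pair labelled wnt-4 RNAi than in the pair with no second hairpin (unadjusted p = 0.0707, adjusted p = 0.432, edgeR). Over all genes tested 0.0807% passed that comparison. Between the otk-1 RNAi pair and the pair with no second hairpin the term was −0.02 ± 0.16 (unadjusted p = 0.886, adjusted p = 0.980, edgeR). Between the pair labelled wnt-4 RNAi and the otk-1 RNAi pair it was 0.33 ± 0.16 (unadjusted p = 0.0540, adjusted p = 1.00, edgeR). None of the 3 terms passed the threshold, so a smaller difference in the pair labelled wnt-4 RNAi was not shown.

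Within the 3 hairpin groups the level of arm was not uniform. A test across these groups passed the threshold (adjusted p = 0.00894, edgeR), as it did for 19.8% of all genes tested. The group labelled wnt-4 RNAi otk-2 RNAi (976 and 996 CPM) had more arm than otk-2 RNAi (637 and 665 CPM), by 0.60 ± 0.11 on the log2 scale (adjusted p = 0.00668, edgeR). That comparison called 20.8% of all genes. It also had more than otk-1 RNAi otk-2 RNAi (671 and 690 CPM), by 0.54 ± 0.11 (adjusted p = 0.0680, edgeR). That comparison called 0.941% of all genes. The second call was lost when any 1 of its 4 libraries was left out, with adjusted p-values from 0.189 up to 0.466 and differences of 0.52 to 0.55. Between otk-1 RNAi otk-2 RNAi and otk-2 RNAi arm differed by 0.06 ± 0.11 (adjusted p = 0.815, edgeR), with a 95% interval of −0.18 to 0.30, in a comparison that called 8.68% of all genes.

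Stage scores differed between the same groups. For otk-2 RNAi alone the scores were 0.37 and 0.45, for the group labelled wnt-4 RNAi otk-2 RNAi −0.43 and 0.05, and for the double otk knockdown −0.91 and −0.78. With the stage score in the fit, the group labelled wnt-4 RNAi otk-2 RNAi exceeded otk-2 RNAi by 0.52 ± 0.09 (adjusted p = 0.00509, edgeR) and the double otk knockdown by 0.63 ± 0.10 (adjusted p = 0.00151, edgeR).

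Within the 7 groups without the hairpin, a test across all of them did not pass for arm (adjusted p = 0.118, edgeR), whereas 67.5% of all genes passed it. It passed when WT replicate 2 was left out (adjusted p = 0.0403) and when replicate 1 labelled wnt-4 RNAi otk-1 RNAi was left out (adjusted p = 0.0528). Against WT, UAS-wnt-4 differed by −0.01 ± 0.11, UAS-otk-1 by 0.04 ± 0.11, UAS-otk-1 UAS-wnt-4 by 0.02 ± 0.11 and otk-1 RNAi by 0.09 ± 0.11 on the log2 scale. None of these 4 passed. Their 95% intervals, of about the same width, reached down to −0.25 for UAS-wnt-4 and up to 0.33 for otk-1 RNAi. Of all genes, 0.610%, 2.84%, 4.82% and 45.5% passed in the same 4 comparisons.

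The libraries labelled wnt-4 RNAi exceeded WT by 0.29 ± 0.11 (adjusted p = 0.0429, edgeR), in a comparison that called 59.2% of all genes. Those labelled wnt-4 RNAi otk-1 RNAi exceeded it by 0.24 ± 0.11 (adjusted p = 0.0861, edgeR), with 62.2% of all genes called. Both calls were fragile. Without WT replicate 1, the library with the highest stage score, the differences were 0.15 (adjusted p = 0.343) and 0.10 (adjusted p = 0.521). The first call was also lost without either of the libraries labelled wnt-4 RNAi, at 0.27 and 0.29 (adjusted p = 0.128 and 0.113), and the second without replicate 2 labelled wnt-4 RNAi otk-1 RNAi, at 0.09 (adjusted p = 0.548). Once the stage score entered the fit, the differences were 0.03 (adjusted p = 0.939) and −0.0027 (adjusted p = 0.992), and with totals in place of TMM factors 0.08 and −0.044. WT had stage scores of 1.03 and 2.49, those labelled wnt-4 RNAi −0.28 and −0.07, and those labelled wnt-4 RNAi otk-1 RNAi −0.16 and 0.20.

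A full separation of the 6 hairpin libraries from the 14 others was rare. Besides arm, 5 genes had all 6 libraries below the 14: otk2, the homeobox gene lbl, the serine protease gene Jon65Aiii, CG10799 and lncRNA:CR46064. These 6 genes are 0.0538% of the genes tested. In the opposite direction 14 genes, or 0.126%, lay above. Both counts include genes near the filter of 10 counts on average. Among the lower genes CG10799 averaged 11.8 counts, and among the higher ones CG13223 averaged 10, CatB 13.85 and CG2955 24.65. Such genes may have passed the filter only through the side where they are high, so both shares are a description. By the size of the difference arm was the fifth of the 6, after Jon65Aiii (−3.78 on the log2 scale), CG10799 (−2.53), otk2 (−1.25) and lncRNA:CR46064 (−0.95). In all, 181 genes differed by more than arm in the same direction, nearly all with overlapping libraries.

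Apart from arm, whose own pairs chose it and are given with no test, the gene called as lower in all 3 matched pairs was otk2. The share of genes tested that were lower in all 3 was 0.0179%, arm counted, and nothing about arm is read from it. As higher in all 3, 8 genes (0.0717%) passed. Of these 8 the named genes with at least 100 counts were poe, which encodes the very large calmodulin-binding protein Purity of essence, and MED20, a subunit of the Mediator complex. The level of poe was 748 to 1114 CPM (median 877) in the 6 hairpin libraries and 198 to 430 CPM (median 288) in the 14 others. That of MED20 was 27.4 to 40.9 CPM (median 31.5) against 10.4 to 17.5 CPM (median 14.5). Neither gene's libraries overlapped between the sides. The 2 genes are neighbours on chromosome 2L, 188 bases apart at 2L:8054322-8071624 and 2L:8071812-8072848. Of the 14 genes with all 6 libraries above, 9 lie on 2L, which holds 17.6% of the genes tested. These 9 include CatB and CG2955, which averaged 13.85 and 24.65 counts. Another 4 lie on 2R, with 20.1% of the genes tested, and 1 on 3L, with 19.7%. None of the 14 lies on the X chromosome, where arm is.

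No gene near arm passed a test for a change with the hairpin. The annotated span of arm overlaps only that of mRpL16, a mitochondrial ribosomal protein gene on the opposite strand, by 82 bases. The level of mRpL16 was 40.8 to 53.8 CPM in the 6 hairpin libraries and 38.2 to 62.5 CPM in the 14 others, with a log2 fold change of 0.10 ± 0.08 for the otk-2 hairpin averaged over the 3 pairs (adjusted p = 0.799, edgeR). Within 50 kb of arm 28 genes besides it, mRpL16 included, were tested. None passed the threshold in this averaged comparison in either direction, where 0.394% of all genes passed as higher and 0.637% as lower. At these shares few or no calls would be expected among 28 genes, so the absence of calls says little about the neighbours. Their changes had a median of 0.02 and ranged from −0.40 to 0.27, beside a median of 0.00 for all genes. Across the X chromosome 1812 genes had a median of 0.01, and 9261 autosomal genes a median of 0.00.

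**Figure D2:**
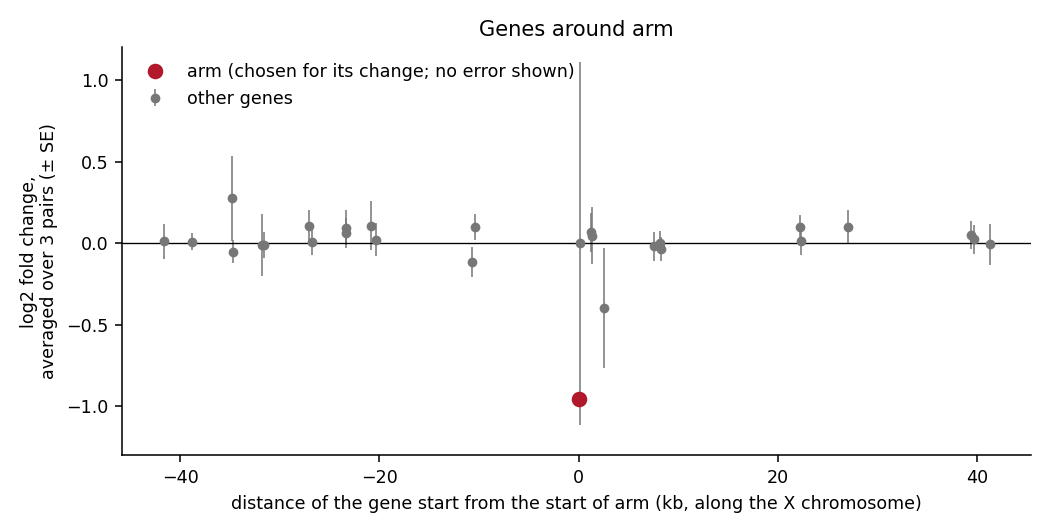
Log2 fold change for the otk-2 hairpin, averaged over the 3 matched pairs (vertical axis), of arm and of genes within 50 kb against the distance of their start from the start of arm in kb (horizontal axis). Grey bars are SE. Of the 28 neighbours 27 are shown, since the start of 1 lies farther out, and the longest bar belongs to a gene with a mean of 11.3 counts. The neighbours range from −0.40 to 0.27, and arm alone lies near −1.

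The deposited lengths, which follow the mix of arm transcripts, overlapped between the sides. The mean transcript length that RSEM assigned to arm was 3126.53 to 3131.78 bases in the 6 hairpin libraries and 3126.81 to 3133.34 bases in the 14 others. The means were 3128.3 ± 1.96 and 3129.9 ± 1.80 bases (SD over libraries), a difference of −0.0511%. Of the 6207 genes tested whose length varied, 26.3% differed by less. Since arm-RB and arm-RF are at least 3211 bases long and the other transcripts 3116 to 3127 bases, the former took at most 11.1 to 16.6% of arm transcripts in the 6 libraries and at most 11.4 to 18.3% in the 14. The short reading frame of arm-RC, at 3123 bases, cannot be told from the other forms by length.

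The genes that work with Armadillo were counted in lists, with the otk-2 hairpin averaged over the 3 pairs. This comparison called 115 of 11154 genes, or 1.03%. Of 10 transducers and members of the destruction complex 0 were called in either direction, with a median of −0.00. At a share of 1.03% few or no calls would be expected in a list of this size, so the count says little about these genes. The scaffold gene Axn had a change of −0.03 ± 0.09, the kinase gene sgg one of 0.03 ± 0.08, and slmb, which encodes the ubiquitin ligase subunit that recognises phosphorylated Armadillo, one of 0.03 ± 0.07. The scaffold genes Apc and Apc2 had changes of −0.11 ± 0.09 and 0.09 ± 0.16, and dsh, which relays the receptor signal, one of −0.01 ± 0.11.

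Of 10 genes for nuclear partners none passed, beside 1.03% of all genes, with a median of 0.03. The gene pan, for the factor that brings Armadillo to DNA, had a change of 0.00 ± 0.08. The adaptor genes lgs and pygo had changes of −0.04 ± 0.08 and 0.04 ± 0.13, and the co-repressor gene gro one of 0.06 ± 0.09. None of 11 adherens junction genes passed either (median −0.04). The E-cadherin gene shg had a change of −0.04 ± 0.07, alpha-Cat one of 0.11 ± 0.09 and p120ctn, for another catenin bound to E-cadherin, one of 0.16 ± 0.13.

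The levels of the junction partners per length show what this does to their proportions in RNA. The gene alpha-Cat was at 162 to 181 TPM (median 165) in the 6 hairpin libraries and at 147 to 190 TPM (median 162) in the 14 others. The ratio of arm to alpha-Cat in TPM was 1.27 to 1.92 (median 1.43) in the 6 and 2.26 to 3.48 (median 2.82) in the 14, without overlap. The ratio of arm to shg was 2.31 to 3.87 in the 6 and 5.35 to 7.37 in the 14, also without overlap. For p120ctn it was 1.08 to 1.83 against 1.88 to 3.61. These ratios carry the arm values by which the gene was chosen and are a description.

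Among ligands and receptors 4 genes were lower. Of 10 genes for Wnt ligands and their release Wnt4 and Notum passed as lower and none as higher. Of 13 receptors and co-receptors otk2, the target of the hairpin, and fz3 passed as lower and none as higher. Over all genes tested 0.637% passed as lower and 0.394% as higher. The change of Wnt4 was −0.64 ± 0.09 on average (adjusted p = 0.00259, edgeR). It was −0.66 ± 0.15 from WT to otk-2 RNAi (adjusted p = 0.0691, edgeR), and −0.31 ± 0.15 from otk-1 RNAi to otk-1 RNAi otk-2 RNAi, which did not pass. The remaining pair is labelled wnt-4 RNAi on both sides, and there the change was −0.94 ± 0.15, from 143 and 159 CPM to 74.9 and 82.9 CPM. Since the higher level is in libraries that went against their label, the direction in that pair rests on the labels. The ligand gene wg had a change of −0.17 ± 0.12, the co-receptor gene arr one of 0.03 ± 0.07, and the receptor genes fz and fz2 changes of −0.02 ± 0.07 and 0.08 ± 0.07. None of these 4 passed, and wg, arr, fz and fz2 passed in no single pair either. The gene otk (otk-1) had an averaged change of 0.06 ± 0.10, which combines pairs of opposite sign: −0.49 ± 0.18 from WT to otk-2 RNAi, 0.10 ± 0.18 in the pair labelled wnt-4 RNAi and 0.57 ± 0.18 in the otk-1 RNAi pair. Neither the average nor any of the pairs passed.

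Notum and fz3 are also Wingless target genes. Of 8 such targets 2 passed as lower and 0 as higher, against 0.637% and 0.394% of all genes, and the median change of the list was −0.20 beside 0.00 for all genes. On average all 8 had a change below 0, from −0.84 to −0.06, but this did not hold in each pair. The median was −0.28 from WT to otk-2 RNAi and −0.43 in the otk-1 RNAi pair, with all 8 below 0 in both. In the pair labelled wnt-4 RNAi it was −0.0049, and 4 of the 8 lay above 0, up to 0.18.

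Notum encodes a secreted enzyme that inactivates Wnt proteins and is itself switched on by the pathway as feedback. In the 6 hairpin libraries it stood at 15.8 to 25.7 CPM (median 19.5), and in the 14 others at 19.2 to 49.8 CPM (median 33.9). The sides overlapped in 3 libraries without the hairpin: UAS-otk-1 UAS-wnt-4 replicate 1 at 23.9 CPM and those labelled wnt-4 RNAi otk-1 RNAi at 19.2 and 25.1 CPM, where arm stood at 1426 and 1752 CPM. The averaged change of Notum was −0.84 ± 0.15 (adjusted p = 0.0175, edgeR). By pair it was −0.65 ± 0.26 against WT, −0.70 ± 0.26 in the pair labelled wnt-4 RNAi and −1.18 ± 0.27 in the otk-1 RNAi pair, and none of the 3 passed alone.

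The gene fz3 encodes a Frizzled-type receptor that Wingless signaling raises in flies. It stood at 16.2 to 19.4 CPM (median 18.1) in the 6 hairpin libraries and at 16.5 to 31.4 CPM (median 25.2) in the 14 others. The overlap came from replicate 1 labelled wnt-4 RNAi otk-1 RNAi, at 16.5 CPM, and its replicate 2 followed at 19.6 CPM. The averaged change was −0.49 ± 0.08 (adjusted p = 0.0109, edgeR), with −0.69 ± 0.15 against WT (adjusted p = 0.0399, edgeR), −0.30 ± 0.15 in the pair labelled wnt-4 RNAi and −0.49 ± 0.15 in the otk-1 RNAi pair. Under all 21 alternatives run, the changes of Notum stayed between −0.98 and −0.68 (adjusted p of at most 0.0734) and those of fz3 between −0.59 and −0.45 (adjusted p of at most 0.0520).

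Other targets had smaller values. The segment polarity gene en, whose stripes depend on Wingless, was at 35.5 to 51.9 CPM (median 44.4) in the 6 libraries and at 34.9 to 77.3 CPM (median 53.9) in the 14. Its averaged change was −0.23 ± 0.14 (adjusted p = 0.710, edgeR). The feedback inhibitor gene nkd was at 186 to 230 CPM (median 200.1) against 136 to 303 CPM (median 217), with a change of −0.17 ± 0.10 (adjusted p = 0.705, edgeR). Of 7 denticle genes that Wingless represses none passed, beside 1.03% of all genes, with an averaged median of −0.11. That median combines −0.63 from WT to otk-2 RNAi with 0.15 in the pair labelled wnt-4 RNAi, where all 7 lay above 0, and 0.12 in the otk-1 RNAi pair.

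**Figure D3:**
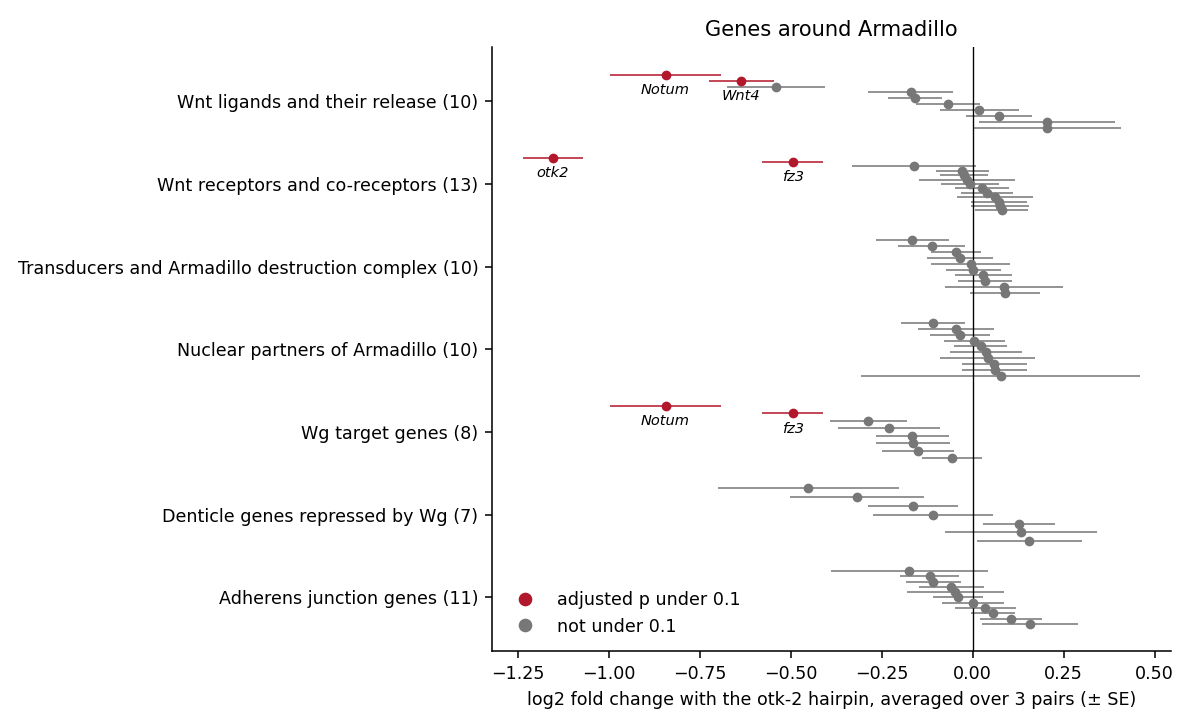
Log2 fold change for the otk-2 hairpin averaged over the 3 matched pairs (horizontal axis, bars are SE) of the members of 7 lists of genes around Armadillo, with arm left out. Red points passed an adjusted p of 0.1 in edgeR. Only otk2, Notum, Wnt4 and fz3 passed, all as lower, and the lists of transducers, nuclear partners and junction genes lie around 0.

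The lists that follow embryo age held no called gene in this comparison, which called 1.03% of all genes. None of 11 cuticle, 10 muscle, 8 neuron, 12 maternal and 15 blastoderm genes passed in either direction. At that share few or no calls would be expected in such lists, so their absence says nothing about age. The medians of the lists were −0.45, −0.09, −0.10, 0.29 and 0.10 in that order, and these averages mix pairs that differ. From WT to otk-2 RNAi the medians were −0.90, −0.45, −0.34, 0.79 and 0.28. In the pair labelled wnt-4 RNAi they were −0.53, 0.32, 0.16, 0.14 and 0.15, with every muscle and neuron gene above 0. In the otk-1 RNAi pair they were −0.28, −0.10, −0.06, 0.02 and −0.07. The summed level of the cuticle list was 45.6 to 943 TPM in the 6 hairpin libraries and 183 to 1061 TPM in the 14 others, that of the muscle list 2107 to 4652 against 1604 to 7165 TPM, and that of the neuron list 113 to 204 against 87.7 to 235 TPM. The maternal list summed to 943 to 1605 TPM against 433 to 1555 TPM, and the blastoderm list to 258 to 329 against 143 to 415 TPM. The part of embryo age in the arm values was not tested. As a description, the mean log2 CPM of arm in the 3 groups lay 0.92 below that of the 7, with no model fitted. The edgeR fit with the stage score gave a log2 fold change of −0.99 for the same groups, which is a different measure.

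**Figure D4:**
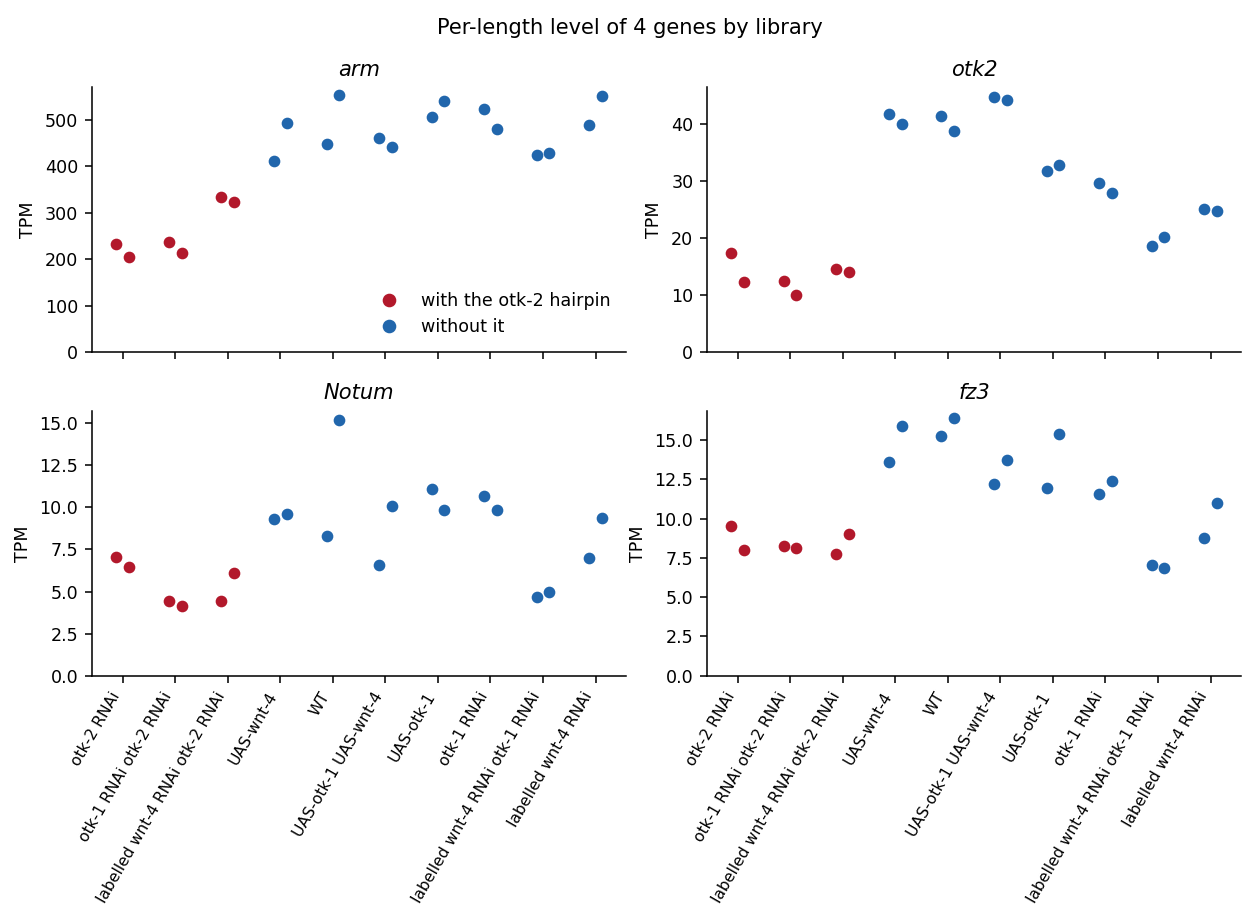
TPM (vertical axes, from 0) of arm, otk2, Notum and fz3 in each of the 20 libraries, with groups in the order of their mean arm CPM. Points are libraries, and red marks the otk-2 hairpin. In arm and otk2 the 2 sides do not overlap (206 to 334 against 413 to 553 TPM, and 10.1 to 17.4 against 18.7 to 44.6 TPM). In Notum and fz3 the libraries labelled wnt-4 RNAi otk-1 RNAi (4.66 and 4.99 TPM, and 7.04 and 6.85 TPM) are as low as those with the hairpin. Replicate 1 labelled wnt-4 RNAi (6.97 and 8.78 TPM) also lies in the hairpin range of both genes, and UAS-otk-1 UAS-wnt-4 replicate 1 in that of Notum (6.58 TPM).

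No gene had a profile close to that of arm over the 20 libraries. Among the 8805 genes that averaged 100 counts or more, the nearest by the root mean square distance of centred log2 CPM was lncRNA:CR46064, at 0.33, where the profile of arm itself has a root mean square of 0.46. The next was lbl, a homeobox gene of muscle and heart precursors, also at 0.33. The remaining 8 of the nearest 10 were RhoGAP68F, crc, CG8788, CG30120, Zip102B, pre-mod(mdg4)-W, Rab14 and abo, at 0.36 to 0.39. Only lncRNA:CR46064 and lbl among the 10 had hairpin libraries that all lay below the others. Pearson's r with arm was 0.786 for lncRNA:CR46064 and 0.769 for otk2, the highest values, and none reached 0.9. These values describe 20 libraries that share 10 groups, and the hairpin contrast is part of them.

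The level of lncRNA:CR46064 was 4.34 to 8.25 CPM in the 6 hairpin libraries and 9.14 to 17.4 CPM in the 14 others. That of lbl was 2.88 to 4.23 against 4.29 to 8.13 CPM. Per length both were far below arm over the 20 libraries, at 1.79 to 7.86 TPM for lncRNA:CR46064 and 1.69 to 5.46 TPM for lbl, and the gap of lbl between the sides was narrow.

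**Figure D5:**
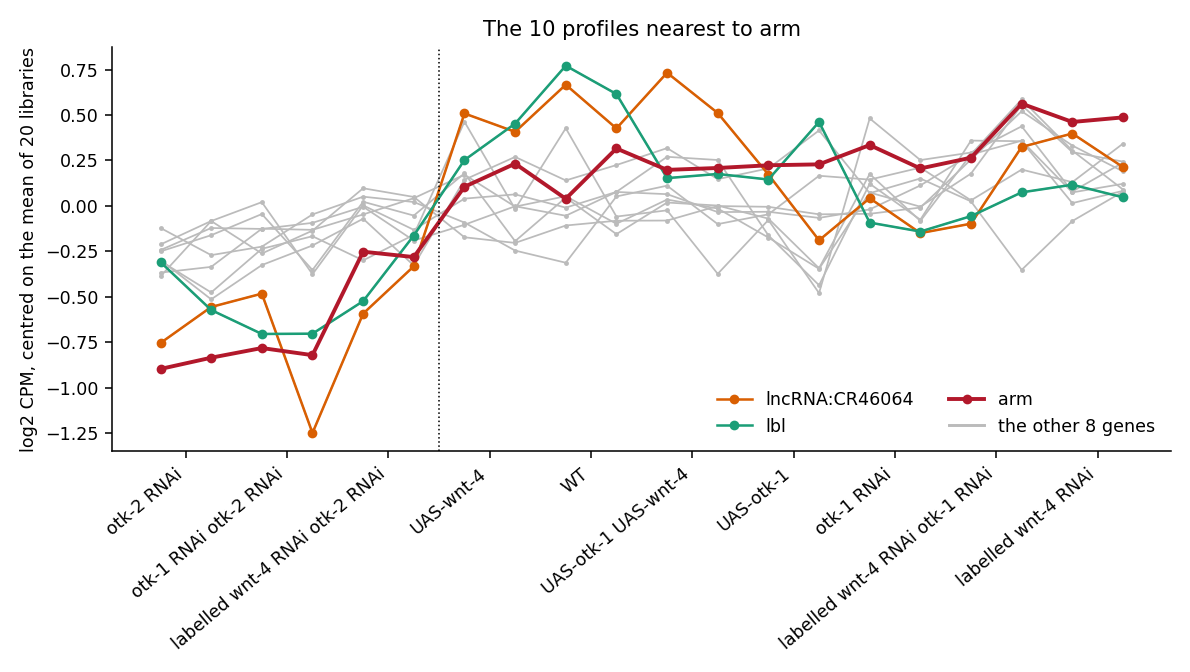
Centred log2 CPM (vertical axis) of arm and the 10 genes nearest to it, in the 20 libraries grouped in the order of mean arm CPM. The dotted line separates the 6 libraries with the otk-2 hairpin from the 14 others. The 8 genes in grey change less than arm across that line, and lncRNA:CR46064 and lbl cross it with arm but are highest in WT or the overexpression groups.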

How the data were processed

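RNA of whole embryos was sequenced as paired reads of 151 bases. As deposited, each library has a table of expected counts, TPM and FPKM per gene; the authors aligned reads to dm6 with STAR 2.7.1a and estimated the values with RSEM 1.3.1. Expected counts were rounded (11.6% were not whole) and tested; the deposited TPM and mean transcript lengths were used as values, and FPKM were not used. Of 17714 genes, 426 of the types that the study removes were left out (5.99 to 10.9% of counts, in part rRNA), and genes averaging 10 counts or more were kept.

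All 20 libraries entered 1 fit of edgeR 4.0.16 (TMM, quasi-likelihood, Benjamini-Hochberg over 11154 genes, threshold 0.1; common dispersion 0.0336). SE is the log2 fold change divided by the root of F. The averaged comparison sets the 3 hairpin groups against WT, otk-1 RNAi and the group labelled wnt-4 RNAi. The study itself used DESeq2, run here as an alternative (1.42.0). Other alternatives were RLE scaling, totals only, no filter, a threshold of 5%, a stage covariate, the compared groups only, a replicate block and leaving out libraries. Scripts were tested on simulated counts (R 4.3.3, Python 3.11.15). Gene spans come from an Ensembl annotation of dm6. No sequences were used here.

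The gene and the lists were chosen with earlier results of these data known. Named genes were the pathway members fixed by name, up to 4 further members per list past the threshold, the 10 nearest profiles, the 5 largest rises and falls called in all 3 pairs with at least 100 counts and a proper name, and genes that overlap arm; genes with libraries fully separated were named after their values were seen. No 2 libraries had identical counts.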

Additional observations from a re-analysis of the deposited data

How the results depend on the processing

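Under every alternative run, the difference of arm between the 3 groups and the 7, which chose the gene, was −0.99 to −0.90, the test across the 3 groups passed, and in the averaged comparison each named pathway gene stayed on its side of the threshold. The calls of pathway genes in single pairs were not rerun, and that of Wnt4 from WT to otk-2 RNAi (adjusted p = 0.0691) does not pass 5%. Counts of called genes moved more. In the averaged comparison (115 genes) DESeq2 called 248, a threshold of 5% 75, and leaving out 1 library 60 to 181. From WT to otk-2 RNAi (199) DESeq2 called 634, no filter 314, a threshold of 5% 92, the stage covariate 61, the compared groups alone 122, and leaving out 1 library 24 to 2396, the highest without WT replicate 2. In the pair labelled wnt-4 RNAi (20) DESeq2 called 35 and leaving out 1 library 1 to 5, and in the otk-1 RNAi pair (26) DESeq2 called 65, the stage covariate 54, and leaving out 1 library 6 to 24. The adjusted p of arm across the 7 groups (0.118) was 0.0983 with no filter and 0.0403 to 0.304 with 1 library left out. The difference of arm between the libraries labelled wnt-4 RNAi otk-1 RNAi and WT (0.24) was −0.0027 with the stage covariate and −0.044 with totals only. The call of arm between the group labelled wnt-4 RNAi otk-2 RNAi and otk-1 RNAi otk-2 RNAi was lost with RLE scaling (adjusted p = 0.118), the compared groups alone (0.145) and a threshold of 5%. The cause of these shifts was not tested. Same-numbered libraries deviated together in some groups only (correlations of −0.23 to 0.63 over 45 pairs of groups, median 0.06, 17 of them over 0.1), and no label ties the numbers to a shared source, so the libraries were not treated as paired. A replicate block gave 142, 295, 20 and 32 called genes in the 4 comparisons above, and arm differed by −0.92. The planned comparison of letters shared by arm and otk2 transcripts was not run. With 2 libraries a group, an exact permutation test of 1 pair cannot go below p = 0.333.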
